A study of Mus musculus with 2 samples.

Results

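A set of 9 genes by which the mature proximal tubule is known was followed in mouse kidneys at embryonic day 14.5. They are the scaffold gene Pdzk1, the glucose and fructose enzymes Pck1, Fbp1, G6pc and Khk, the arginine, creatine and inositol enzymes Ass1, Gatm and Miox, and Spp2, which encodes a secreted phosphoprotein. They were chosen by name, with earlier results of these data known, and all 9 were found among the 43346 genes of the deposited tables, of which 21461 are nuclear protein-coding genes. The study sequenced total RNA from 2 libraries of strain B6NCrl, each from 2 kidneys of 1 embryo, with 10 ng of RNA longer than 200 nt as input. The labels name no mutation and no treatment, give collection days 2 days apart, and describe kidneys of a single pup while also naming both sexes as pooled. The labels make both libraries biological replicates, and there is no other condition. What follows is therefore each gene's level and its spread over replicates, and no gene was tested.

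The proximal tubule is the first segment of the nephron after the glomerulus. In the adult it takes back most of the filtered glucose, phosphate and amino acids, and it is, with the liver, a main site of glucose synthesis. It also makes the creatine precursor guanidinoacetate, recycles citrulline to arginine and breaks down inositol and fructose. At embryonic day 14.5 new nephrons are still forming at the edge of the organ, and the earliest of them have begun to form tubule segments.

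The deposited gene tables held 28429080 and 27758872 expected counts on genes, an expected count being an estimated number of reads. Levels are given in TPM, each transcript's share of its library after allowing for length, with replicate 1 first. Markers of the labelled organ were present: all 6 nephron progenitor markers examined reached 1 TPM in both libraries, with a summed level of 335 and 317 TPM. The 9 genes together held 3589 and 2354 of the gene counts, so several of them rest on few reads.

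**Figure D1:**
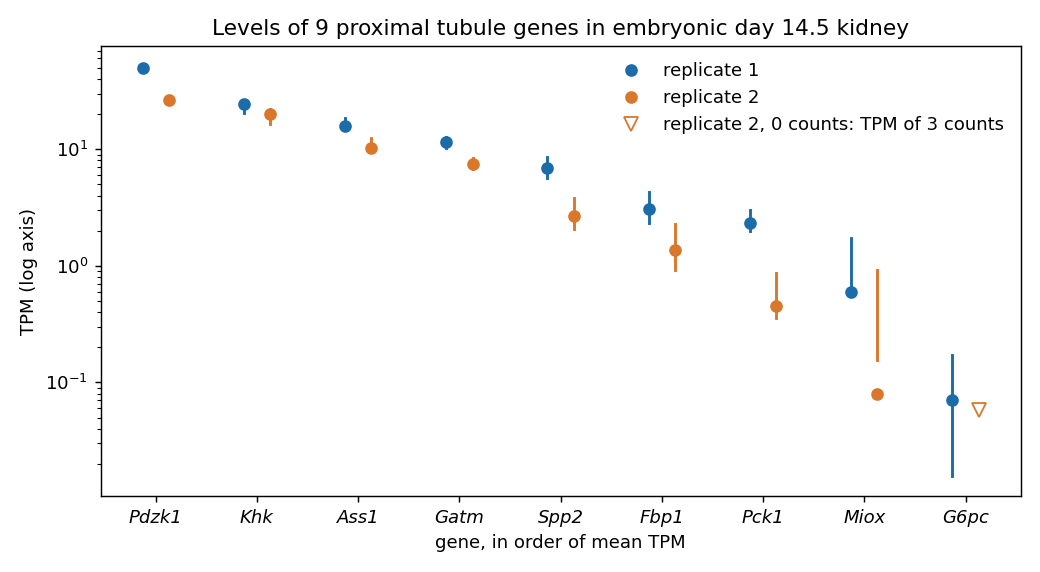
TPM (log axis) of the 9 genes in replicate 1 (blue) and replicate 2 (orange), in order of mean level. Vertical lines are the deposited credibility intervals of each estimate within its library, and the open triangle is the TPM that 3 counts of G6pc would give. Levels run from 49.3 TPM for Pdzk1 in replicate 1 to 0 counts for G6pc in replicate 2, and each gene has the lower TPM in replicate 2, although Khk has the higher count there.

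The genes spanned a wide range of levels, from well expressed to hardly detected. Pdzk1 was highest at 37.9 ± 16.2 TPM (SD, n = 2), above 82.6% of protein-coding genes, and G6pc was lowest at 0.035 ± 0.0495 TPM. In between stood Khk at 22.2 ± 2.93 TPM, Ass1 at 13.1 ± 3.97 TPM, Gatm at 9.47 ± 2.78 TPM, Spp2 at 4.76 ± 2.96 TPM, Fbp1 at 2.22 ± 1.21 TPM, Pck1 at 1.39 ± 1.33 TPM and Miox at 0.34 ± 0.368 TPM. The replicate ranges of Pdzk1 and Khk did not overlap, nor did those of Khk and Ass1 or of Gatm and Spp2. Those of Miox and G6pc were parted only by 0.08 TPM from 1 count and 0.07 TPM from 3 counts. The deposited intervals of these values overlap, so this pair is not resolved. The replicate ranges of Ass1 and Gatm, Spp2 and Fbp1, Fbp1 and Pck1, and Pck1 and Miox overlapped between libraries. Within each library, however, the first named of each of these pairs had the higher TPM. A level of 1 TPM was reached in both libraries by 6 of the 9 genes, or 7 in replicate 1 and 6 in replicate 2, against 59.0% of all protein-coding genes. The median of the 9 mean levels was 4.76 TPM, against 4.195 TPM over all nuclear protein-coding genes. These are levels in whole tissue: fewer proximal tubule cells and less RNA per cell cannot be told apart.

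Pdzk1 encodes a scaffold with several PDZ domains, which holds transporters and their regulators at the brush border of the tubule cell. In the GENCODE annotation it lies on mm10 chromosome 3, 96829284 to 96870926, plus strand (ENSMUSG00000038298.10), and the other genes are placed likewise, on the plus strand unless said otherwise. Its level was 49.3 TPM in replicate 1, from 2026 counts, and 26.4 TPM in replicate 2, from 1166 counts, so replicate 1 was 1.87-fold higher in TPM. On counts scaled by each library's gene total (CPM) the ratio was 1.697, with an exact conditional 95% interval of 1.578 to 1.825 that covers counting error only. Its full-length 2406-nt coding transcript Pdzk1-201, of 9 exons, held 87.1% and 81.4% of the gene's TPM, and the 531-nt coding fragment Pdzk1-204 held 10.7% and 17.7%. In the reference annotation 1333 of the 2406 bases of Pdzk1-201 are also exonic in Gpr89 on the opposite strand. Gpr89 stood at 33.0 and 28.2 TPM. The use of strand in counting is not stated by any source used here, and without strand the reads of Pdzk1 and Gpr89 cannot be told apart over these bases.

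The promoter windows of Pdzk1 and Pck1 are shown because these are the highest member and the member with the largest log2 ratio of TPM + 1 between libraries, and because each holds a match to a motif known from genes of kidney and liver. The windows are from RefSeq (GRCm38.p6), 250 bases before and 50 bases from the start, 5′ to 3′ on the gene's strand, and capitals mark the match. They are at chr3:96829815-96830114 (plus) and chr2:173152823-173153122 (plus).
Pdzk1: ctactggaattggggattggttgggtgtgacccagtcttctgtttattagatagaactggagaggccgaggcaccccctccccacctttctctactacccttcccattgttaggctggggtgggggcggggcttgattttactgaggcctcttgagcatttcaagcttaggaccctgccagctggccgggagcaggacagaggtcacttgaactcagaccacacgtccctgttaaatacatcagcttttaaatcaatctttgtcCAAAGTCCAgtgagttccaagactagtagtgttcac
Pck1: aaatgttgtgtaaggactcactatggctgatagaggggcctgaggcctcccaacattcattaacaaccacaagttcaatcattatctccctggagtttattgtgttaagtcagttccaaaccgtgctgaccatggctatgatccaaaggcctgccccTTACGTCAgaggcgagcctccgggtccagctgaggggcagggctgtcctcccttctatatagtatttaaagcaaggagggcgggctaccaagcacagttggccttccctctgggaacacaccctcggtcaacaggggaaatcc

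Pdzk1 carries CAAAGTCCA, letters of the HNF4 motif, at window bases 265 to 273, which is past this RefSeq start. These letters, searched on both strands, occur in 0.475% of 32851 promoter windows. Pck1 carries a match to TNACGTCA, letters of the cyclic AMP response element, at bases 158 to 165, as do 2.93% of windows. Neither match overlaps the other motif, and the letters of both were written down after the windows had been read. The windows of the other 7 genes, and a further window of Pdzk1, held neither set of letters, which says nothing about binding there.

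Among the partners of Pdzk1, the related PDZ scaffold genes Slc9a3r1 and Slc9a3r2 and the binding partner Pdzk1ip1 were the highest. They stood at 73.8 ± 17.9, 65.1 ± 7.21 and 69.5 ± 3.53 TPM (SD, n = 2). Slc9a3r1 exceeded Pdzk1 1.75-fold in replicate 1 and 2.31-fold in replicate 2. The phosphate transporter gene Slc34a1, whose protein ends in a PDZ-binding tail, reached 0.433 and 0.302 of the Pdzk1 level, at 21.3 and 7.97 TPM. The sodium-proton exchanger gene Slc9a3, a major cargo of these scaffolds in the adult, was the lowest at 0.09 and 0.13 TPM from 4 and 7 counts. Of the 12 partners and relatives 9 reached 1 TPM in both libraries, with a median of 5.59 TPM, and the paralog Pdzd3 stood at 2.4 ± 1.34 TPM. The 3 highest partners stood above Pdzk1 in both libraries, and the cargo genes below it.

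Glucose synthesis runs from oxaloacetate through phosphoenolpyruvate and fructose 1,6-bisphosphate to glucose 6-phosphate and free glucose. Its committed steps are made by phosphoenolpyruvate carboxykinase (PEPCK), fructose bisphosphatase and glucose 6-phosphatase. Each step has a gene of the adult liver and kidney (Pck1, Fbp1, G6pc) and at least 1 paralog. In these libraries the 3 member genes were low, and their paralogs held much or nearly all of each step's summed TPM.

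Pck1 encodes the cytosolic PEPCK (chromosome 2, 173153048 to 173159273, ENSMUSG00000027513.7). It had 117 counts and 2.33 TPM in replicate 1 and 26 counts and 0.45 TPM in replicate 2. It was the member with the largest log2 ratio of TPM + 1, at 1.20. The CPM ratio was 4.39, with a counting interval of 2.85 to 7.01. In replicate 1 the retained-intron transcript Pck1-202 held 13.3% of the level, and in replicate 2 all of it was assigned to the coding Pck1-201. The mitochondrial paralog Pck2 stood at 18.3 and 12.2 TPM, so that Pck1 held 11.3% of the step in replicate 1 and 3.57% in replicate 2. Pck2 exceeded Pck1 7.85-fold (counting interval 6.49 to 9.58) and 27.0-fold (18.3 to 41.6).

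Fbp1 encodes the fructose bisphosphatase of liver and kidney (chromosome 13, 62864753 to 62888282, minus strand, ENSMUSG00000069805.6). It had 63 counts and 3.07 TPM in replicate 1 and 31 counts and 1.36 TPM in replicate 2. The muscle-type paralog Fbp2 was close to it, at 4.77 and 1.34 TPM. The ratio of Fbp2 to Fbp1 was 1.55 in replicate 1 (counting interval 1.13 to 2.15) and 0.985 in replicate 2 (0.595 to 1.64), where the interval includes no difference. The full-length Fbp1-201, of 1479 nt, held 62.15% and 57.3% of the Fbp1 level, and the 612-nt Fbp1-203 the remainder, from 11.63 and 6.72 counts.

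G6pc encodes the catalytic subunit that releases free glucose (chromosome 11, 101367561 to 101377903, ENSMUSG00000078650.2). It had 3 counts in replicate 1, or 0.07 TPM, and 0 counts in replicate 2, which allows up to 0.0575 TPM at 3 counts. Expression was thus at the limit of what this depth can show. The widely expressed paralog G6pc3 was at 33.4 and 38.0 TPM, 477-fold above G6pc in replicate 1 (counting interval 163 to 2319) and at least 660-fold higher in replicate 2. G6pc2 was at 3.91 and 2.87 TPM. Slc37a4, the transporter that carries glucose 6-phosphate to the enzyme, was at 28.1 and 20.2 TPM.

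**Figure D2:**
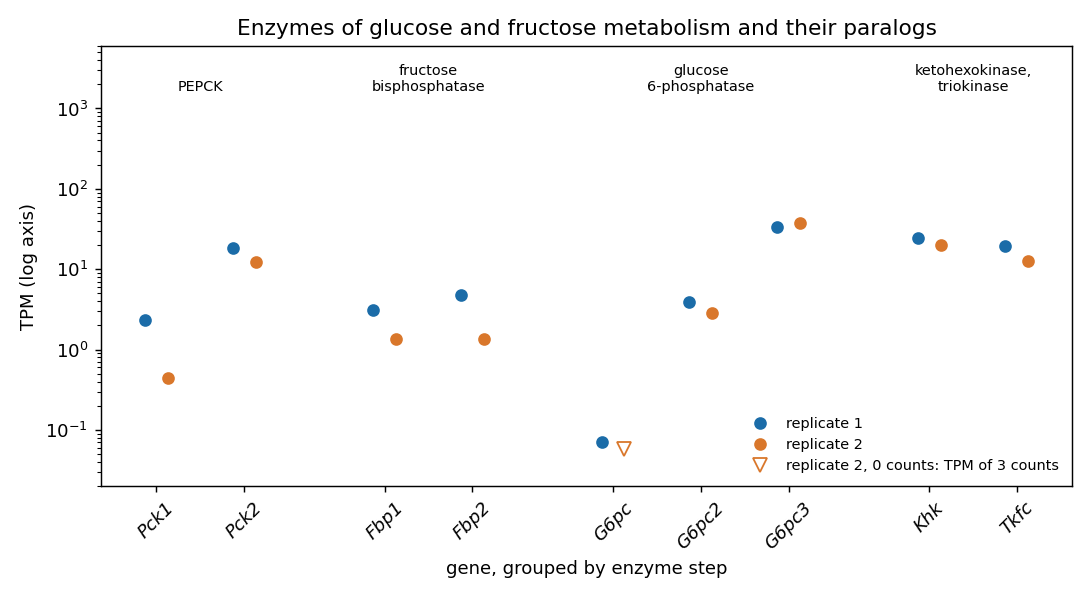
TPM (log axis) of genes of glucose and fructose metabolism, grouped by enzyme step, in replicate 1 (blue) and replicate 2 (orange); the open triangle is the TPM of 3 counts where none was found. Pck2 and G6pc3 stand above Pck1 and G6pc in both libraries, while Fbp1 and Fbp2 lie close together.

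Khk encodes ketohexokinase, the enzyme that starts fructose breakdown (chromosome 5, 30921431 to 30931248, ENSMUSG00000029162.11). It stood at 24.2 TPM in replicate 1 and 20.1 TPM in replicate 2, but its counts ran the other way, 286 and 325. Its CPM ratio was 0.859, with a counting interval of 0.7304 to 1.01, which includes no difference. The abundance-weighted length of the gene was 704 nt in replicate 1 and 817 nt in replicate 2. Transcripts of 544 and 754 nt held 52.1% and 39.5% of its TPM in replicate 1 and 46.6% and 30.4% in replicate 2. The 1456-nt transcript took 8.42% and 22.8%, or 2.04 and 4.59 TPM. Both short transcripts are missing from the later annotation release used here, whose transcripts held 18.9% and 43.1% of the Khk counts.

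The Khk level thus depends on how reads were shared among transcripts. Counts per kb of the longest annotated transcript, as CPM, were 6.91 and 8.04 for Khk against 10.3 and 7.89 for Ass1 and 7.14 and 5.84 for Gatm. On that measure, chosen after the values were seen, Khk ranked 3 among the 9 genes rather than 2. Khk is known for a pair of alternative exons that distinguish its isoforms. The reference places 2 exons of equal length at chr5:30926688-30926822 and chr5:30927022-30927156. Their shares were not computed, because most counts lie on transcripts whose exons the reference does not give, and because its Khk-201 contains both.

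Another enzyme of fructose use was present beside Khk. Tkfc, the triokinase gene, was at 19.5 and 12.7 TPM. The fructose transporter gene Slc2a5 was low at 1.74 and 0.68 TPM. Of the 16 partners in glucose and fructose metabolism 14 reached 1 TPM in both libraries, with a median of 12.6 TPM. The highest were the glycolytic gene Aldoa at 526 ± 21.7 and the malate dehydrogenase gene Mdh1 at 423 ± 29.1 TPM (SD, n = 2), and the lowest was the dicarboxylate transporter gene Slc13a3 at 0.33 and 0.18 TPM.

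Ass1 encodes argininosuccinate synthase, which joins citrulline and aspartate on the way to arginine (chromosome 2, 31470207 to 31520672, ENSMUSG00000076441.5). It had 496.6 counts and 15.9 TPM in replicate 1 and 371.57 counts and 10.3 TPM in replicate 2, all on the 1696-nt coding transcript. The CPM ratio was 1.31, with a counting interval of 1.14 to 1.496. Of its 50-base stretches 38.6% also occur in Gm5424, a near-identical locus at 0.49 and 0.07 TPM, so the split of reads between them is uncertain. The other 8 genes shared no 50-base stretch with transcripts of another gene on the same strand. Asl, the enzyme that follows Ass1, exceeded it 1.93-fold and 2.77-fold, at 30.8 and 28.6 TPM. In contrast the mitochondrial urea cycle genes of the liver were at or near 0: Otc had 0 counts in both libraries, Cps1 had 7 and 5 counts and Nags 0 and 3.

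Gatm encodes the amidinotransferase that makes guanidinoacetate, the precursor of creatine (chromosome 2, 122594467 to 122611303, minus strand, ENSMUSG00000027199.10). It had 485 counts and 11.4 TPM in replicate 1 and 387 counts and 7.5 TPM in replicate 2. Its CPM ratio was 1.22, with a counting interval of 1.07 to 1.40. The 2389-nt coding transcript held 92.7% and 100% of the level, the remainder in replicate 1 being a retained-intron transcript. Gamt, which completes creatine synthesis, stood 2.31-fold and 3.04-fold above Gatm, at 26.4 and 22.8 TPM. The creatine transporter gene Slc6a8 was at 8.25 and 6.77 TPM. Of the 14 partners in creatine, arginine and urea metabolism 11 reached 1 TPM in both libraries, with a median of 6.38 TPM, led by Ckb at 64.0 ± 5.04, Ddah1 at 47.3 ± 0.460 and Asl at 29.7 ± 1.57 TPM (SD, n = 2).

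Miox encodes the oxygenase that opens the inositol ring and is known for its restriction to the kidney tubule (chromosome 15, 89334398 to 89337015, ENSMUSG00000022613.4). It had 11 counts in replicate 1, or 0.60 TPM, and 1 count in replicate 2, or 0.08 TPM. The CPM ratio was 10.7, but its counting interval ran from 1.56 to 462. In replicate 1 9.11 counts were assigned to the coding transcript Miox-201, and the single count of replicate 2 to a retained-intron transcript. The deposited posterior mean estimates were 1.13 and 0.50 TPM, and the TPM of replicate 2 lies below its own deposited interval of 0.155 to 0.919. By contrast the inositol-making synthase gene Isyna1 was at 85.9 and 71.5 TPM, and the inositol transporter gene Slc5a3 at 10.7 and 3.75 TPM. Of the 8 inositol genes 7 reached 1 TPM in both libraries, with a median of 11.2 TPM, the highest being the aldehyde reductase gene Akr1a1 at 568 ± 31.2 TPM, Isyna1 and the inositol phosphatase gene Impa1 at 56.4 ± 4.90 TPM, and the lowest Slc5a11 at 0.91 ± 0.778 TPM.

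Spp2 encodes a secreted protein with a cystatin-like domain, made in the adult mainly by the liver (chromosome 1, 88406961 to 88426438, ENSMUSG00000026295.8). It had 101 counts and 6.85 TPM in replicate 1 and 46 counts and 2.66 TPM in replicate 2. The CPM ratio was 2.14, with a counting interval of 1.499 to 3.108. Spp2-201, of 928 nt, held 66.5% and 71.7% of the level and Spp2-202, of 710 nt, the remainder. The hepatic relatives of the same superfamily were far lower: Ahsg reached 0.104 and 0.0865 of the Spp2 level, at 0.71 and 0.23 TPM, Kng1 0.39 and 0.17 TPM, and Fetub and Hrg had 2 counts or fewer in each library. The broadly expressed Cst3, at 308 and 344 TPM, was the only 1 of the 5 relatives that reached 1 TPM in both libraries, and the list median was 0.28 TPM.

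**Figure D3:**
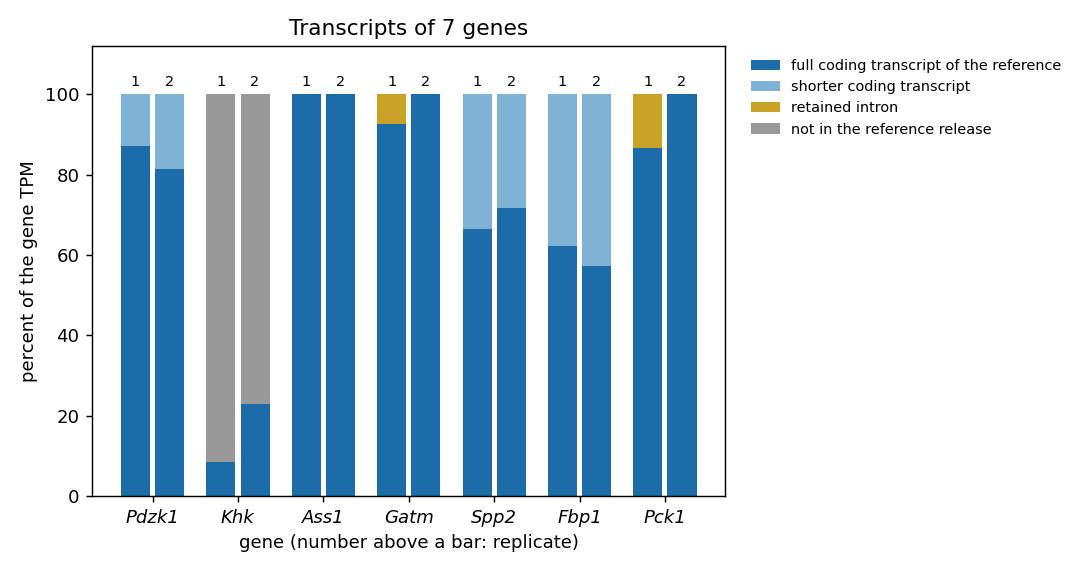
Percent of each gene's TPM held by kinds of transcript, for all of the genes but Miox and G6pc, with replicate 1 left and replicate 2 right. Ass1, Gatm, Pck1 and Pdzk1 are mostly full coding transcripts, Spp2 and Fbp1 include a shorter coding form, and most of Khk is on transcripts that the reference release does not hold.

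The libraries were next compared with each other. All 9 genes had a higher TPM in replicate 1, as had 72.0% of protein-coding genes with counts. On CPM 8 of the 9 were higher in replicate 1, against 56.9%, the exception being Khk. A gene was called apart if its TPM + 1 differed 2-fold or more, a log2 ratio of 1, and its higher library reached 5 TPM. By this rule Spp2 alone of the 9 was apart, at a log2 ratio of 1.10, since Pck1, at 1.20, did not reach 5 TPM. The call was lost on FPKM, where the log2 ratio of Spp2 was 0.85, on CPM + 1, where it was 0.72 to 0.78, and with a pseudocount of 5, where it was 0.63. Of the 9 genes 5 reached 5 TPM in the higher library, as did 10683 protein-coding genes. That rule called 4.22% of these 10683 as higher in replicate 1 and 0.459% as higher in replicate 2. The median log2 ratio of the 9 genes was 0.58, and that of 10356 protein-coding genes at 5 TPM or more was 0.30. On CPM + 1 with TMM factors, a scaling that sets the bulk of genes equal, the median was 0.41 for the 9 genes and 0.016 for those genes. The gene at that median of 0.41 was Miox, with 11 counts in replicate 1 and 1 count in replicate 2. Several of the 9 genes average below 5 TPM, unlike the genes they are set beside.

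The ratio between libraries depended on transcript length over all genes. In 20 bins of length the median log2 ratio rose from -0.26 in the shortest bin, at a median length of 632 nt, to 0.62 at 4532 nt. Each gene was therefore set beside the 500 protein-coding genes nearest to it in length with a mean of 5 TPM or more. The medians of these sets ran from -0.18 at the length of Khk to 0.42 at that of Pck1. Hence Gatm, with a log2 ratio of 0.55, lay only 0.18 above genes of its length, whereas Khk, with 0.26, lay 0.44 above its own. That gap rests on the short weighted length of Khk and was 0.21 by its longest annotated transcript and 0.20 on CPM with TMM factors.

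**Figure D4:**
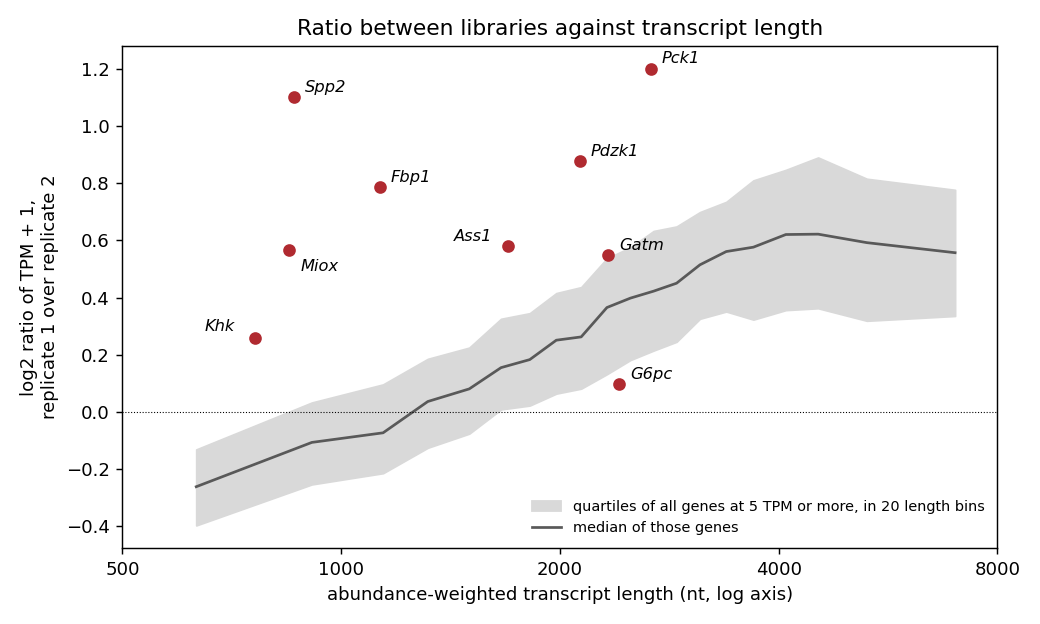
Log2 ratio of TPM + 1, replicate 1 over replicate 2, against abundance-weighted transcript length (log axis). The line and band are the median and quartiles of protein-coding genes at 5 TPM or more in 20 length bins, and red points are the 9 genes. Of the points, 7 lie above the band, Gatm lies close to its upper edge and G6pc below it.

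Set beside genes of like length, 8 of the 9 genes lay above the median and 7 above the upper quartile. Of all protein-coding genes at 5 TPM or more 24.6% lay above that quartile, and of those between 0.02 and 5 TPM 17.4%. With a pseudocount of 1 TPM the gap to the median was largest for Spp2 at 1.23, whose ratio exceeded that of all 500 genes. With a pseudocount of 0.1 it was 1.46 for Spp2, 1.70 for Pck1 and 2.10 for Miox, and on CPM with TMM factors 1.13 for Spp2 and 1.21 for Pck1. It was 0.85 for Fbp1 and 0.78 for Pck1, each above 499 of 500, and 0.70 for Miox and 0.62 for Pdzk1, each above 495. It was 0.44 for Khk, above 483, 0.41 for Ass1, above 468, and 0.18 for Gatm, above 374. G6pc, with 3 and 0 counts, had a gap of -0.29, its values lying far below the pseudocount of 1 TPM. Spp2, Fbp1, Pck1, Miox and G6pc, with means below 5 TPM, were set here beside genes of higher mean level. Against genes of like length and within 2-fold of each gene's mean level, the gaps ran from 0.098 for G6pc to 1.04 for Spp2. That of G6pc sets 3 and 0 counts beside genes with a median log2 ratio of 0. The share of all genes with a gap above 0 in this comparison was not computed. These positions describe 2 libraries and were not tested.

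Partners followed the members only in part. Of the 16 glucose and fructose partners the gap to genes of like length had a median of 0.15, against 0.62 for the 9 genes. It was 0.0062 for the 14 creatine and arginine partners, 0.058 for the 8 inositol genes and 0.13 for the 12 partners of Pdzk1. None of these genes was apart in the direction of replicate 2. Of protein-coding genes at 5 TPM or more in the higher library 0.459% were so called, and 4.22% in the direction of replicate 1. The partners apart and higher in replicate 1 were Ckmt1 at 6.24 and 2.32 TPM, Slc5a3 at 10.7 and 3.75 TPM and Slc34a1 at 21.3 and 7.97 TPM. They are named because they met the rule. Fbp2 had a log2 ratio of 1.30 but stayed below 5 TPM.

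Regulators of these genes were also compared. Among the highest were the co-activator gene Crebbp at 36.1 and 25.5 TPM and the glucocorticoid receptor gene Nr3c1 at 25.6 and 13.9 TPM. Hnf4a, a nuclear receptor of the proximal tubule, was at 8.43 and 4.53 TPM. The lowest was Hnf4g at 0.79 and 0.66 TPM. Of 12 regulators 10 reached 1 TPM in both libraries, with a median of 5.84 TPM. Their gaps to genes of like length had a median of -0.079, with 0.12 for Hnf4a.

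Markers of cell types moved to unequal extents between the libraries. The 16 proximal tubule markers summed to 151 TPM in replicate 1 and 71.2 TPM in replicate 2, a ratio of 2.12, and 14 of them had the higher TPM in replicate 1, or 13 on CPM. Lrp2, Dpp4 and Slc34a1, the last also counted among the Pdzk1 partners, were apart by the rule above. Of protein-coding genes at 5 TPM or more in the higher library, 4.22% were so called as higher in replicate 1. Dpp4, at 52.4 and 22.8 TPM, Ggt1, at 44.8 and 22.0 TPM, and Slc34a1 made up most of the sum. The median log2 ratio of the list was 0.58 and its median gap to genes of like length 0.26. The summed ratio of the 9 genes was 1.65. Aqp1 had more TPM in replicate 2, at 2.17 and 4.15 TPM, and Kap had 0 counts in both. The other tubule list, of the loop of Henle and distal tubule, had a ratio of 1.38, with 5 of 5 higher in replicate 1 on TPM and 3 of 5 on CPM. Podocyte markers had a ratio of 1.52, with 5 of 5 on either scale. Set beside genes of like length, however, the median gap was -0.036 for the loop and distal list and -0.083 for podocytes. The ratio was 1.06 for nephron progenitor markers and 1.06 for endothelial markers, and 1.24 for macrophage markers, with median gaps of 0.0076, -0.086 and 0.19. The part of these differences in the ratios of the 9 genes was not tested.

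Several of the 9 genes are also known from liver, so markers of other organs were examined. The 14 liver markers summed to 51.2 and 35.9 TPM, a ratio of 1.43, and 6 of them reached 1 TPM in both libraries. The list shares Ahsg and Cps1 with the partner lists. Albumin (Alb), which defines hepatocytes, was at 1.34 and 1.05 TPM, and Tat had 0 counts in both libraries. Afp, at 21.95 and 12.96 TPM, and Trf, at 14.4 and 10.0 TPM, made up most of the sum. Intestinal markers summed to 5.67 and 2.48 TPM, a ratio of 2.29, nearly all from Vil1 at 5.3 and 2.07 TPM, which the kidney also expresses, with Cdx2 and Sis at 0 counts in both. Adrenal cortex markers summed to 31.4 and 28.6 TPM, mostly from Akr1b7 at 26.6 and 24.0 TPM and Mc2r at 3.01 and 3.19 TPM, with Cyp21a1 and Hsd3b1 at 0 counts in both. Brown fat markers summed to 108 and 129 TPM, nearly all from Fabp4, with Ucp1 at 1 and 5 counts.

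**Figure D5:**
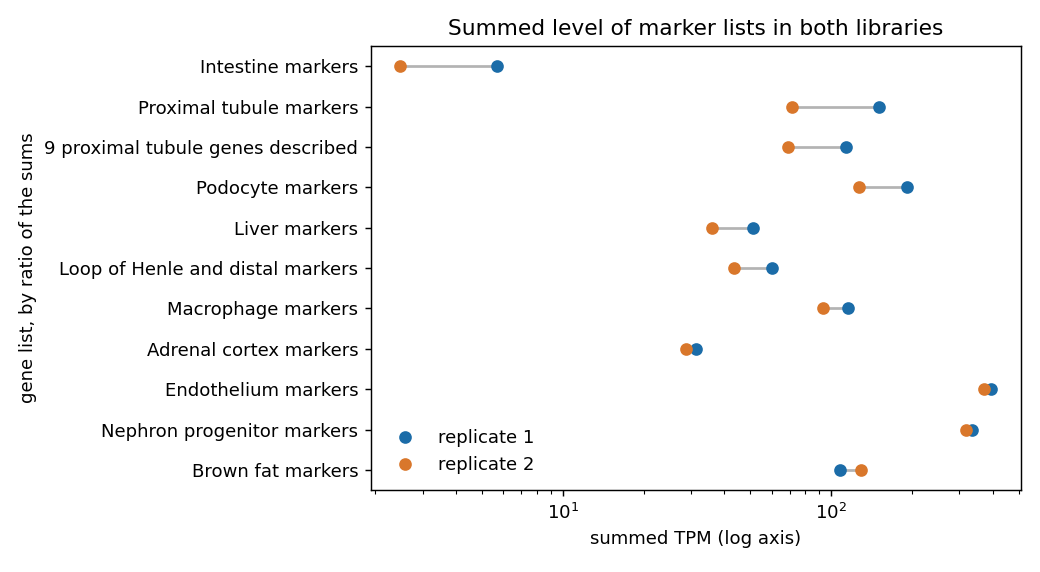
Summed TPM (log axis) of marker lists and of the 9 genes described, in replicate 1 (blue) and replicate 2 (orange), ordered by the ratio of the sums. The proximal tubule markers differ 2.12-fold between the libraries and the 9 genes 1.65-fold, against 1.06-fold for nephron progenitor and endothelial markers, without allowing for transcript length. Intestinal markers differ most, 2.29-fold, podocyte markers 1.52-fold, liver markers 1.43-fold and loop of Henle and distal markers 1.38-fold.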

How the data were processed

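Total RNA was sequenced from 2 kidney libraries of 1 group. The authors deposited gene and transcript tables with expected counts (estimated reads, not whole), TPM, FPKM and, per transcript, the percent of its gene's TPM, per the file headers. Posterior mean TPM and the bounds of a credibility interval, a signal that is never negative, were also deposited by the authors. No source used here names the quantifier or aligner, or says whether strand was used.

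Gene identifiers without version were matched to GENCODE symbols of the same assembly (mm10), 42462 genes having one. Each library's TPM and counts were read as deposited, spike-ins (4.34% and 4.95% of counts) being left out of gene totals. Ratios are log2(TPM + 1), which understates the change of low genes. Each was set beside the 500 protein-coding genes nearest in abundance-weighted length with a mean of 5 TPM or more. Means, SDs, log2 ratios, gaps, sums and shares kept genes at 0 as 0. For folds between genes, stated bounds and the plots of levels, a gene at 0 was given the level of 3 counts as a floor. Exact conditional binomial intervals at 95% and this floor cover counting error only. With 1 group of 2 replicates no test was made, and the SD covers only the spread between these samples.

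The members and lists were chosen with earlier results of these data known. By rule, the text names the 9 genes, their paralogs, and the 3 highest and the lowest gene of each partner list. Some of the genes and a motif this covers are not reported here, although counts and medians over lists include them. Other partners, and the markers given singly, were named after their values were seen. Alternatives covered the unit, pseudocount, scaling (TMM factors by edgeR 4.0.16 in R 4.3.3, rounding expected counts, and median-of-ratios factors), thresholds, nearest genes and each replicate alone. The comparison by length was tested on simulated data, with 100 genes changed 2-fold in each direction among 10356. The median gaps were 0.969 and -0.967, and 0.014 for unchanged genes. The number 10356 is that of the protein-coding genes at 5 TPM or more. Use of the comparison below that level, where Spp2, Fbp1, Pck1, Miox and G6pc lie on average, was not tested. Values were computed with pandas 2.3.3 and scipy 1.17.1 in Python 3.11.15, and plots were drawn with matplotlib 3.10.9.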

Additional observations from a re-analysis of the deposited data

How the results depend on the processing

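The count of genes apart between libraries, 1 as reported, was 0 with a pseudocount of 5, with FPKM, and with CPM under TMM factors, median-of-ratios factors or gene totals, the last added after seeing the data. It was 2 with a fold of 1.5 and 2 with no floor on level. The median log2 ratio of the 9 genes, 0.58, was 0.90 with a pseudocount of 0.1, and 0.39 to 0.42 with a pseudocount of 5, FPKM or CPM. The log2 ratio of Khk, 0.26 on TPM, was -0.27 with TMM factors, -0.24 with median-of-ratios factors and -0.20 on CPM of gene counts. The gap of G6pc, -0.29, was 0.098 against genes of like length and level, 0.35 with a pseudocount of 0.1 and 0.030 on CPM with TMM factors. The cause of these changes was not tested. The median level of the 9 genes, 4.76 TPM, was 2.66 without replicate 1 and 6.85 without replicate 2. The share of the alternative exons of Khk was not run, because most of its counts lie on transcripts whose exons were not used here. Depth limits Miox and G6pc most, with 11 counts or fewer in a library. No paired analysis was possible because there is 1 group.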
